A study of Mus musculus with 2 samples.

Results

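The genes described here are 8 of the 43346 mouse genes in the tables, chosen by name as genes of cholesterol synthesis and its control. They are the enzymes Hmgcs1, Idi1, Fdps, Fdft1, Sqle and Lss and the regulators Srebf2 and Insig1. None of the 8 encodes a receptor for cholesterol uptake, and uptake genes are covered below only as a separate list. The RNA came from the lung of a C57BL/6J female (an inbred laboratory strain), an adult of 10 weeks for which the labels name no treatment. Its polyadenylated RNA was sequenced in 2 libraries. The labels number them as technical replicates 2 and 1 of biological replicate 1, and say that replicate 2 was made later. There is 1 group and no comparison of conditions, so every SD is over n = 2 libraries and measures technical spread, not variation between animals. In whole tissue, fewer cells of a type and less RNA per cell cannot be told apart.

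Cells make cholesterol from acetyl-CoA through mevalonate, isoprenoid diphosphates, squalene and lanosterol. When sterols in the endoplasmic reticulum fall, the transcription factor SREBP-2, product of Srebf2, is carried to the Golgi, cut and released to the nucleus, where it raises transcription of nearly all enzymes of the pathway and of its own gene. The Insig proteins hold SREBP-2 back when sterols are plentiful. In the lung, cholesterol is a component of surfactant, the lipid film that alveolar type 2 cells secrete, and much of it is taken up from lipoproteins.

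The libraries held 17110871 rounded expected counts in replicate 2 and 16104423 in replicate 1, and 14096 and 12131 genes reached 1 TPM (an abundance corrected for transcript length and for the library's total). Over the 14139 genes whose mean TPM was 1 or more, the median log2 ratio of replicate 2 over replicate 1 was 0.15. In replicate 2, 38.8% of these genes were higher by over 2-fold and 28.9% lower by over 2-fold. Lung markers were present in both libraries but at unequal levels. The type 2 cell gene Sftpc was at 39612 TPM in replicate 2, against 287 TPM in replicate 1, and 4 of the 5 type 2 markers were higher in replicate 2. The fifth, Lamp3, was lower, at 191 and 687 TPM. Of all 14 lung markers, 8 were higher and 6 lower in replicate 2. Across the markers of type 2, club, macrophage, endothelial and fibroblast cells, levels lay between 17.3 and 174257 TPM in replicate 2 and between 1.70 and 17498 TPM in replicate 1, with none at 0. Alb, the defining marker of liver, where cholesterol synthesis is high, was near 0, at 1.91 and 1.44 TPM. Adipoq, of adipose tissue, was at 90.1 and 99.96 TPM, and Myl7, of atrial and pulmonary vein muscle, at 465 and 18.5 TPM. The part of cell makeup in the differences below was not tested.

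All 8 genes were detected in both libraries. Their sum was 341 TPM in replicate 2, against 623 TPM in replicate 1, a mean of 482 ± 199 TPM (SD, n = 2), or 0.0341% and 0.0623% of all TPM. The order of the genes differed between the libraries. In replicate 2 Fdps was highest, followed by Hmgcs1, Idi1, Insig1, Srebf2, Fdft1, Sqle and Lss, and the highest level was 13.1 times the lowest. In replicate 1 Idi1 was highest, followed by Hmgcs1, Insig1, Sqle, Fdft1, Fdps, Lss and Srebf2, and the highest level was 70.9 times the lowest. Spearman's rho between the libraries over the 8 genes was 0.40, given as a description only. By mean level the order was Idi1, Hmgcs1, Insig1, Fdps, Sqle, Srebf2, Fdft1 and Lss. Between Fdft1 and Lss the ranges over the libraries did not overlap, at 8.88 to 23.0 TPM and 4.44 to 7.61 TPM. The ranges of all other neighbours in this order overlapped, although Hmgcs1 was above Insig1 in both libraries.

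**Figure D1:**
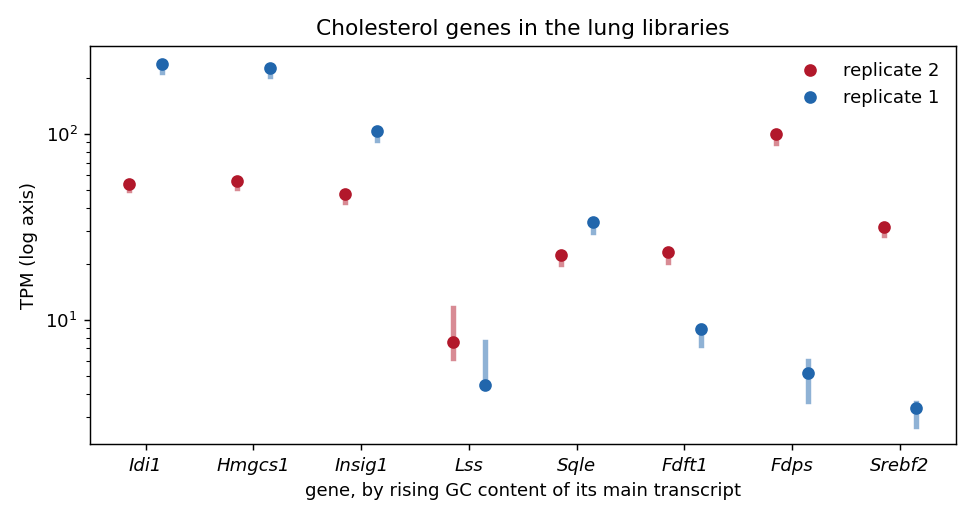
TPM on a log axis (points) of the 8 genes in replicate 2 (red, left) and replicate 1 (blue, right), with the authors' deposited intervals as bars; the intervals belong to a posterior mean that is mostly a little lower than the TPM. Genes run from low to high GC content, and the red points lie below the blue ones for Idi1, Hmgcs1, Insig1 and Sqle and above them for Lss, Fdft1, Fdps and Srebf2.

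Of the enzymes that lead to farnesyl diphosphate, 2 were lower and 1 was far higher in replicate 2. Hmgcs1 encodes the cytosolic HMG-CoA synthase at the entry of the pathway (ENSMUSG00000093930.1, chromosome 13, 119690379 to 119708260 on GRCm38, plus strand). It was at 55.9 TPM in replicate 2, from 2689 counts, and at 225 TPM in replicate 1, from 7695 counts. After scaling it was 3.74-fold lower in replicate 2, with a 95% counting interval of 3.58 to 3.91.

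Idi1 encodes isopentenyl-diphosphate isomerase, which interconverts the C5 building blocks (ENSMUSG00000058258.10, chromosome 13, 8885501 to 8892451, plus strand). It was at 54.0 TPM from 2425 counts in replicate 2, against 238 TPM from 7491 counts in replicate 1. It was 4.04-fold lower in replicate 2 (3.86 to 4.23), close to the value for Hmgcs1. The authors' intervals for these 2 genes overlapped in replicate 2, at 49.7 to 54.1 TPM for Idi1 and 50.8 to 54.8 TPM for Hmgcs1. In replicate 1 they did not, at 216 to 227 TPM and 204 to 213 TPM.

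Fdps encodes farnesyl diphosphate synthase, the enzyme that nitrogen-containing bisphosphonate drugs inhibit (ENSMUSG00000059743.8, chromosome 3, 89093588 to 89101959, minus strand). It was at 99.6 TPM in replicate 2, from 1663 counts, and at 5.14 TPM in replicate 1, from 61 counts. It was 20.8-fold higher in replicate 2 (16.1 to 27.4), the ratio farthest from 1 among the 8 genes. Its TPM in replicate 2 was at or above that of 92.3% of detected genes, against 32.7% in replicate 1. In replicate 2 its TPM was 1.84 times that of Idi1, while in replicate 1 that of Idi1 was 46.2 times that of Fdps.

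The enzymes of the sterol branch differed less. Fdft1 encodes squalene synthase, which makes the first intermediate committed to sterols (ENSMUSG00000021273.9, chromosome 14, 63145150 to 63179578, minus strand). It was at 23.0 TPM from 973 counts in replicate 2, against 8.88 TPM from 266 counts in replicate 1, 2.80-fold higher in replicate 2 (2.44 to 3.21). Sqle encodes squalene epoxidase, a rate-limiting oxidation of the branch (ENSMUSG00000022351.10, chromosome 15, 59315077 to 59331192, plus strand). It was at 22.3 TPM from 907 counts in replicate 2, against 33.7 TPM from 969 counts in replicate 1. Its ratio lay within 2-fold, 1.40-fold lower in replicate 2 (1.28 to 1.53). Fdft1 and Sqle were thus level in replicate 2, with overlapping intervals of 20.5 to 23.2 and 19.8 to 22.6 TPM, while in replicate 1 the TPM of Sqle was 3.79 times that of Fdft1.

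Lss encodes lanosterol synthase, which closes the sterol rings (ENSMUSG00000033105.8, chromosome 10, 76531588 to 76557138, plus strand). It was at 7.61 TPM from 496 counts in replicate 2, against 4.44 TPM from 335 counts in replicate 1. It was the lowest of the enzymes in replicate 2. In replicate 1 its deposited interval, 4.32 to 7.55 TPM, overlapped that of Fdps, 3.63 to 6.02 TPM. By counts it was 1.13-fold higher in replicate 2, with an interval of 0.983 to 1.30 that includes 1. By TPM the ratio was 1.71. The authors' effective length of the gene, which TPM divides by, was 4132 bases in replicate 2 and 6748 bases in replicate 1, after the mix of transcripts described below.

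The regulators differed in opposite directions by scaled counts. Srebf2, like Insig1, lay below the GC trend described below, which at the GC content of Srebf2 was at a log2 ratio of 4.35. Srebf2 encodes the transcription factor SREBP-2 (ENSMUSG00000022463.7, chromosome 15, 82147181 to 82205379, plus strand). It was at 31.4 TPM from 2379 counts in replicate 2, against 3.35 TPM from 180 counts in replicate 1, 10.1-fold higher in replicate 2 (8.68 to 11.8). It was the lowest of the 8 genes in replicate 1, and its level there was at or above that of 23.1% of detected genes, against 76.4% in replicate 2. Insig1 encodes a protein of the endoplasmic reticulum that retains SREBP-2 and is itself a target of it (ENSMUSG00000045294.10, chromosome 5, 28071363 to 28078662, plus strand). It was at 47.7 TPM from 1890 counts in replicate 2, against 104 TPM from 2928 counts in replicate 1. It was 2.03-fold lower in replicate 2, with an interval of 1.91 to 2.15 that spans the 2-fold threshold. The TPM of Insig1 was 1.52 times that of Srebf2 in replicate 2 and 31.1 times in replicate 1.

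Among the 8 genes, which all passed that minimum, Fdps, Srebf2 and Fdft1 (3 of 8) were more than 2-fold higher in replicate 2. Idi1, Hmgcs1 and Insig1 (3 of 8) were more than 2-fold lower, and 2 lay within 2-fold. These shares are near those of all genes, 38.8% and 28.9%. The threshold falls between Insig1, just past it, and Sqle, inside it. The median log2 ratio of the 8 was -0.15, against 0.15 for all 14139 genes, and the median size of the log2 ratio was 1.69, against 1.56. The 8 genes as a group differed between the libraries by a median size near that of all genes.

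The order of the ratios largely followed the GC content of the transcripts, with Lss above Sqle and Fdps above Srebf2 as the exceptions. Idi1, at 41.9% GC, and Hmgcs1, at 43.4%, had the lowest ratios, with log2 values of -2.01 and -1.90. Insig1 at 48.2%, Lss at 48.7% and Sqle at 49.3% had log2 ratios of -1.02, 0.18 and -0.48. The GC content of Lss is that of Lss-204, its transcript of highest mean TPM, which is not annotated as coding. The coding transcript Lss-201 has 52.2%, so the place of Lss in this order and against the trend below depends on that choice. Fdft1, at 50.1%, had a log2 ratio of 1.48, Fdps, at 52.2%, one of 4.37, and Srebf2, at 57.9%, one of 3.33. Spearman's rho of GC content and ratio was 0.95 over the 8 genes, a description of genes measured in the same 2 libraries. Over all genes the ratio also differed with GC content, and whether GC content is the cause was not tested. Genes between 40% and 42.5% GC had a median log2 ratio of -1.76 and those between 57.5% and 60% one of 4.77. For Fdps the fitted trend at its GC content was 1.24. Its log2 ratio was 3.13 above the trend, and above the 90th percentile of 2.70 for genes of 50% to 52.5% GC. Fdps lies near the upper edge of that class. In the next class, 52.5% to 55% GC, the 90th percentile was 4.29, only a little below the 4.37 of Fdps. With the trend subtracted the log2 ratio of Fdft1 was 1.12, that of Srebf2 was -1.01, and those of the other five lay between -0.76 and 0.29. Of the 8 genes 3 were thus over 2-fold from the trend, against 34.6% of all genes with a GC value.

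**Figure D2:**
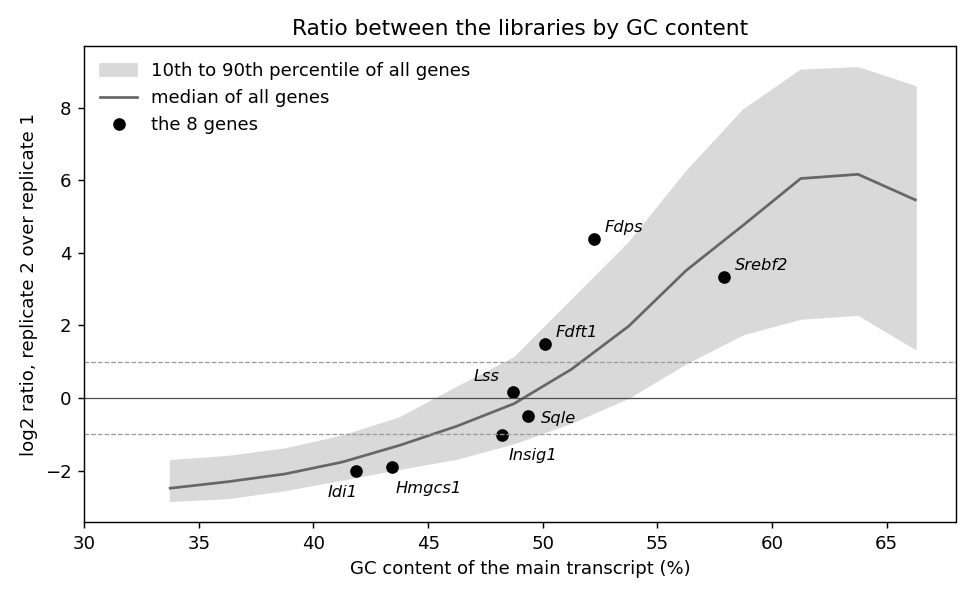
Log2 ratio of replicate 2 over replicate 1 against GC content of the main transcript (%), for the 8 genes (black points) and for all 14107 genes with a GC value in classes of 2.5% GC (grey line, median; band, 10th to 90th percentile); dashed lines mark 2-fold. Idi1 and Hmgcs1 lie low at the left, and Fdps lies above the band.

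GC content was not spread evenly along the transcripts. In windows of 100 bases, Fdps had the narrowest range, 41% to 60%, over a coding transcript of 1237 bases that has a 3' untranslated region of only 55 bases. Its lowest window was above that of each of the other seven coding transcripts, whose lowest windows had 18% to 32% GC. Idi1 and Insig1 have 3' untranslated regions of 1816 and 1842 bases with 37.2% and 43.1% GC, behind a GC-rich start. In Insig1 the richest window reached 80% GC, the highest of all 8, although the gene was lower in replicate 2. Srebf2 was GC-rich over most of its length, with 42.2% of its windows at 60% GC or more, against 14.97% or less in the others. Windows under 40% GC made up 48.2% of those of Idi1, 37.5% of Hmgcs1, 23.9% of Insig1, 1.31% of Srebf2 and none of Fdps. Whether the lack of such stretches bears on the ratio of Fdps was not tested.

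**Figure D3:**
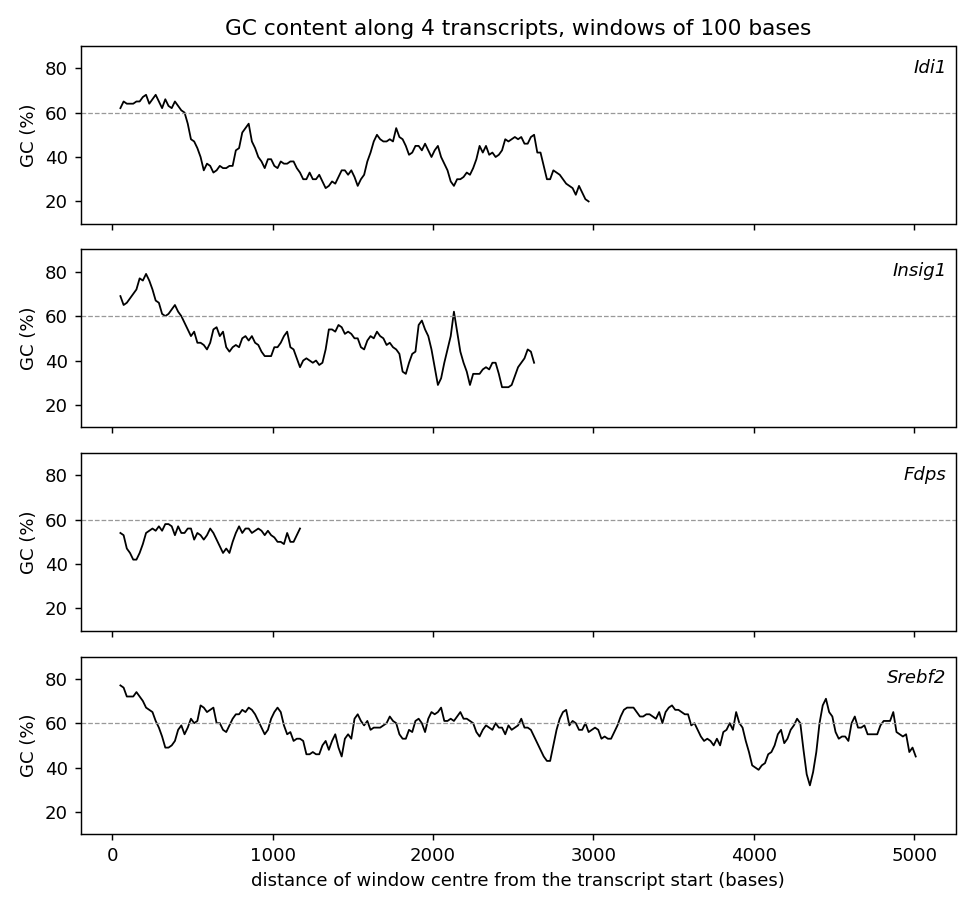
GC content (%) in windows of 100 bases along the main coding transcripts of Idi1, Insig1, Fdps and Srebf2, by distance from the transcript start; the dashed line marks 60%. Idi1 and Insig1 begin GC-rich and end AT-rich, Fdps stays between 41% and 60%, and Srebf2 stays near 60% for most of its length.

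The coding stretches of 90 bases within 1 exon that are richest in GC are printed below, from GENCODE M21 on GRCm38 and in the direction of the gene. They have 64.4% GC in Idi1, 58.9% in Hmgcs1, 80.0% in Insig1, 61.1% in Fdps and 70.0% in Srebf2. Their order does not follow that of the whole transcripts, since Idi1 is above Fdps here and Insig1 is highest. No base is set in capitals here, since the composition and not a motif is of interest.
Idi1, exon 1, chr13:8885861-8885950, plus strand: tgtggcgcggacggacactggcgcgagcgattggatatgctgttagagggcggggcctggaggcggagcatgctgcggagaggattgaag
Hmgcs1, exon 4, chr13:119701123-119701212, plus strand: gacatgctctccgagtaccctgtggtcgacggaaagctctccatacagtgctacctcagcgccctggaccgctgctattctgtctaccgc
Insig1, exon 1, chr5:28071534-28071623, plus strand: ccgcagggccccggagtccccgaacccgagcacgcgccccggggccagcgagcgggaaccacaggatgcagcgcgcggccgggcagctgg
Fdps, exon 3, chr3:89099316-89099405, minus strand: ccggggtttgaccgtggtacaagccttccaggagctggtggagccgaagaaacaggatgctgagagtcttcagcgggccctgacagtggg
Srebf2, exon 2, chr15:82169945-82170034, plus strand: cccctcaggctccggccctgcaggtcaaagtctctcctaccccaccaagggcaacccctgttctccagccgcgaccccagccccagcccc

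Promoter sequences matched for 5 of the 8 genes, Srebf2, Hmgcs1, Idi1, Insig1 and Lss. The 250 bases before the start are shown for Srebf2 and Hmgcs1, since SREBP-2 is known to act at such promoters together with the factor NF-Y. By scaled counts Srebf2 was higher and Hmgcs1 lower in replicate 2. Both lay below the GC trend, which at the GC content of Srebf2 was itself far above 0, at a log2 ratio of 4.35. The sequences come from RefSeq on GRCm38.p6, whose start of Srebf2 lies downstream of the GENCODE start given above. Capitals mark 2 overlapping forms of the sterol regulatory element, TCACNCCAC and TCACCCCAN, and the NF-Y box CCAAT, on either strand, so that CCAAT on the minus strand reads ATTGG.
Srebf2, chr15:82147019-82147268, plus strand: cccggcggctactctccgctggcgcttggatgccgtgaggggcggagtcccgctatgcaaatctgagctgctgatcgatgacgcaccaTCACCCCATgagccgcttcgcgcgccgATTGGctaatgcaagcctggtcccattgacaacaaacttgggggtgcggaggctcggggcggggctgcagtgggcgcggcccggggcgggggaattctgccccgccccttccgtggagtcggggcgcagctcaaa
Hmgcs1, chr13:119690101-119690350, plus strand: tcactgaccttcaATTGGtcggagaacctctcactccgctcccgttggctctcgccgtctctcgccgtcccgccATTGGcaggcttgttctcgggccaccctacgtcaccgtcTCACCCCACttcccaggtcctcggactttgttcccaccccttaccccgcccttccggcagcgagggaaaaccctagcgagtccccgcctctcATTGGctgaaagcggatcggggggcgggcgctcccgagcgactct

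In Hmgcs1 both forms of the sterol element fall at the same place, at positions -137 to -129 from the start, and in Srebf2 the second form lies at positions -162 to -154. The first form occurs in 1.05% and the second in 1.34% of 32851 promoters of this length. Neither form was found in these windows of Idi1, Insig1 or Lss. The NF-Y box was found 3 times in Hmgcs1, 2 times in Idi1 and 1 time each in Srebf2, Insig1 and Lss, and 33.8% of all promoters hold it. The Sp1 box GGGCGG was found 4 times in Srebf2, 3 times in Insig1, 2 times each in Hmgcs1 and Lss and 1 time in Idi1, with 32.7% of all promoters holding it. The E-box CACGTG was found in Insig1 alone among the 5, and 6.02% of promoters hold it. A match is a run of letters and not a shown binding site. The promoters of Hmgcs1 and Srebf2, which share the second form, belong to genes with log2 ratios of -1.90 and 3.33, or -0.56 and -1.01 with the GC trend subtracted.

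The 8 genes have 22 annotated transcripts, of which Lss has 8. Hmgcs1, Fdps, Fdft1, Srebf2 and Insig1 have 1 transcript each, so their main transcript could not differ between the libraries. For Idi1, Sqle and Lss the transcript with the largest share of its gene's abundance was also the same in both libraries. For Lss the lead in replicate 2 was small, at 35.3% for Lss-204 and 32.5% for Lss-201. For Idi1 the coding transcript Idi1-201 held 100% of the abundance in replicate 2 and 98.8% in replicate 1, and for Sqle the coding transcript Sqle-201 held 99.6% and 99.7%.

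Lss was the exception among them, because most of its abundance was assigned to transcripts annotated as retaining an intron, a class not annotated as coding. These held 67.5% of its TPM in replicate 2 and 100% in replicate 1. The full-length coding transcript, Lss-201, was at 2.47 TPM from 175 counts in replicate 2, with a deposited interval of 1.67 to 2.92 TPM. In replicate 1 it was listed at 0 counts, with an interval reaching up to 0.0986 TPM. Lss-204, of 6992 bases, was at 2.68 TPM in replicate 2, from 288 counts, and at 4.33 TPM in replicate 1, from 329 counts. Its deposited intervals were 2.09 to 3.01 TPM and 3.54 to 4.42 TPM, so in replicate 2 it was level with Lss-201. Lss-205, of 425 bases, was at 2.11 TPM from 8.07 counts in replicate 2 and at 0 in replicate 1, a value that rests on few reads, with an interval of 0.106 to 4.73 TPM. Lss-204 shares 4662 bases with Lss-201. It differs by keeping intron 4, of 576 bases (76535668 to 76536243), by an exon of 95 bases (76537569 to 76537663) and by 1659 further bases at the 3' end (76555480 to 76557138). Reads outside these parts and the junctions beside them cannot separate it from Lss-201, and how many fell in each is not analysed here. GC content is 48.7% for Lss-204 and 52.2% for Lss-201. The TPM of Lss-201 was higher and that of Lss-204 lower in replicate 2.

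**Figure D4:**
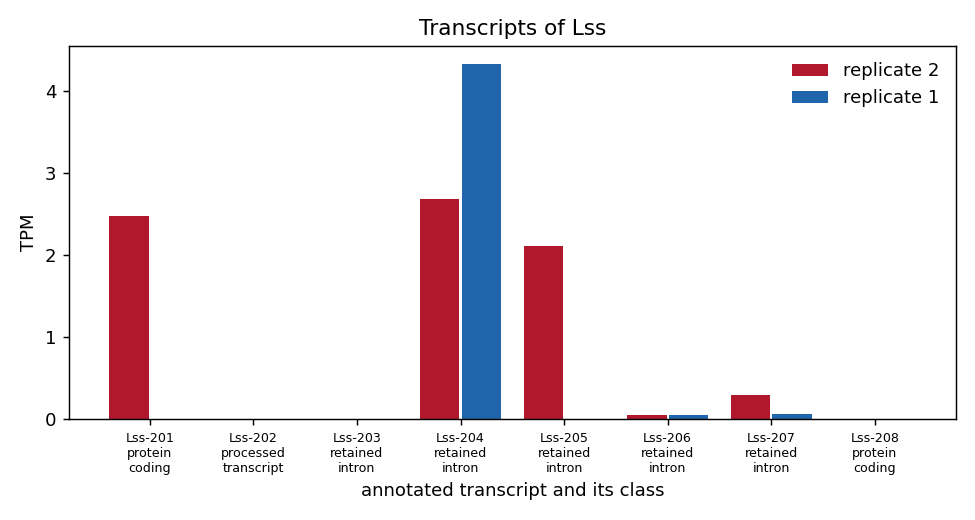
TPM of the 8 annotated Lss transcripts in replicate 2 (red, left) and replicate 1 (blue, right), with the class of each. In replicate 1 nearly all of the signal is on Lss-204, whereas in replicate 2 it is divided between Lss-201, Lss-204 and Lss-205.

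Shared reads touch the values of 3 genes. For the other five the authors' posterior SD of the count was 0 in both libraries. Idi1 has 5 processed pseudogenes, copies made by reverse transcription, with at least 85% identity over 200 bases or more in the reference, and 2 of them are in the tables. One, Gm13502, is identical to Idi1 over 684 bases and was at 0.39 TPM in replicate 2, from 3.11 counts, and at 27.9 TPM in replicate 1, from 158 counts. The posterior SD of the Idi1 count was 3.29 and 23.5 reads. Fdps has 6 such copies, 3 of them in the tables, which together had 7.41 counts in replicate 2, against 0 in replicate 1. With the counts of these copies added, the log2 ratio of Idi1 was -2.04 and that of Fdps 4.38, little different from the genes alone. The protein-coding gene Gm43738 overlaps 7512 bases of Fdps on the same strand and is identical to its transcript over 751 bases. It has no row in the tables, and whether reads from it were counted as Fdps was not tested. Fdft1 shares 774 bases at its 3' end with Ctsb on the opposite strand, a cathepsin gene at 139.7 TPM in replicate 2, against 96.97 TPM in replicate 1. The posterior SD of the Fdft1 count was 0.14 reads in replicate 2 and 0 in replicate 1, so almost none of its reads were counted as shared. Whether the counting used strand is not given in the sources used here, and the assignment of reads in this stretch was not tested. The antisense gene 4930483K19Rik at Lss and the microRNA gene Mir33 within Srebf2 were listed at 0 in both libraries.

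The other genes of cholesterol metabolism, 32 in 3 lists, also differed in both directions. All 32 passed the same minimum. At 1 TPM, 32 were detected in replicate 2, against 23 in replicate 1. Of all genes, 14096 and 12131 reached that level. By ratio, 16 were higher by over 2-fold in replicate 2, 10 lower by over 2-fold and 6 within 2-fold. The median log2 ratio was 0.83, against 0.15 for all genes. The 0.83 does not depend on the genes at 0, which lie far above it at the lower end of their interval too. The share over 2-fold higher was above, and that over 2-fold lower near, the 38.8% and 28.9% of all genes, and the lists' median GC content was 51.1%, against 49.8% for all genes. With the GC trend subtracted, 12 of the 32 were over 2-fold above the trend, against 18.4% of all genes. Abcg1 alone was over 2-fold below it, at -1.81, against 16.3%. Of the genes with the highest ratio in each list, Mvk was then at 4.33, Scap at 2.86 and Lrp1 at 1.58. Of those with the lowest, Ggps1 was at 0.40, Mbtps2 at -0.19 and Vldlr at -0.09. The 12 genes above the trend all had 51.3% GC or more, and ratios spread more widely at high GC content. From the 10th to the 90th percentile, log2 ratios ran from -2.23 to -1.04 at 40% to 42.5% GC and from 1.77 to 7.95 at 57.5% to 60%. The shares of all genes are not matched in GC content, and whether the 32 differ from genes of like GC content was not tested. The genes named from each list as highest and lowest are so by fitted ratio, and their counting intervals can overlap those of other genes of the list.

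Among 15 other synthesis enzymes, 7 were higher and 6 lower by over 2-fold in replicate 2, against 38.8% and 28.9% of all genes. The median log2 ratio was 0.15, the same as for all genes. Msmo1, a methylsterol oxidase, was the most abundant by mean, at 58.0 TPM in replicate 2, against 146 TPM in replicate 1, 2.72-fold lower in replicate 2 (2.55 to 2.89). Lbr, a nuclear membrane protein with sterol reductase activity, was at 28.1 and 72.9 TPM, and the desaturase gene Sc5d at 21.1 and 51.4 TPM. The lowest ratio was that of Ggps1, which makes geranylgeranyl diphosphate, at 12.1 and 36.2 TPM, 2.78-fold lower in replicate 2 (2.47 to 3.13). Mvk, mevalonate kinase, had the highest fitted ratio, with 481 counts in replicate 2, against 0 in replicate 1. Its exact counting interval has a lower end of 99.3-fold and no upper end. Its place as the highest is not settled, since Mvd, a later enzyme of the same pathway, had 362 counts in replicate 2, against 0 in replicate 1. The interval of Pmvk, the enzyme between them, was 58.8-fold to 351-fold, and Pmvk and Mvd are named here after their values were seen. In replicate 1 Hmgcs1, upstream of these steps, and Idi1, downstream of them, had 7695 and 7491 counts. GC content was 59.6% for Mvk, 57.0% for Pmvk and 59.3% for Mvd, against 43.4% for Hmgcs1 and 41.9% for Idi1. Median log2 ratios of all genes were 4.77 at 57.5% to 60% GC and -1.76 at 40% to 42.5%. With the trend subtracted, Mvk, Pmvk and Mvd were at 4.33, 3.05 and 4.06, and Hmgcs1 and Idi1 at -0.56 and -0.40. The part of GC content in this contrast was not tested.

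Among 9 regulators, 5 were higher and 2 lower by over 2-fold in replicate 2, against 38.8% and 28.9% of all genes. The median log2 ratio was 1.90, against 0.15 for all genes, at a median GC content of 52.47%. All genes of 50% to 52.5% GC had a median log2 ratio of 0.79, and those of 52.5% to 55% one of 1.98. Insig2, the paralogue of Insig1, was at 26.7 TPM in replicate 2, against 61.7 TPM in replicate 1, within 2-fold after scaling. Nr1h2 and Nr1h3 encode the liver X receptors, which sense oxysterols. They were at 52.9 and 47.9 TPM in replicate 2 and at 0.69 and 0.77 TPM in replicate 1. The highest fitted ratio was that of Scap, which escorts SREBP-2 to the Golgi, with 1041 counts in replicate 2, against 3 in replicate 1, a 265-fold difference with an interval of 90.5 to 1288. The lowest was that of Mbtps2, a protease that releases SREBP-2, at 3.92 and 17.7 TPM, 4.26-fold lower in replicate 2 (3.70 to 4.91). Genes whose products bind one another thus differed in opposite directions, Scap and Srebf2 being higher and Insig1 lower in replicate 2. Set against the GC trend, Srebf2 and Insig1 lay below it and Scap above it.

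Among 8 genes of uptake, trafficking and storage, 4 were higher and 2 lower by over 2-fold in replicate 2, against 38.8% and 28.9% of all genes. The median log2 ratio was 1.09, at a median GC content of 52.0%, against 0.79 for all genes of 50% to 52.5% GC. Npc2, a lysosomal cholesterol carrier, was the most abundant of all 32 genes, at 576 TPM in replicate 2, against 123 TPM in replicate 1, 5.04-fold higher (4.88 to 5.21). Soat1, which esterifies cholesterol for storage, was at 25.9 and 72.0 TPM, 2.09-fold lower in replicate 2 (1.98 to 2.21). The receptor gene Lrp1 had the highest fitted ratio, with 4362 counts in replicate 2, against 51 in replicate 1, 65.4-fold higher (49.6 to 88.0), at 89.8 and 4.27 TPM. Its TPM differed less than its counts, since its effective length in the tables was longer in replicate 2. The lowest was that of Vldlr, the very low density lipoprotein receptor, at 10.1 and 29.7 TPM, 2.57-fold lower in replicate 2 (2.38 to 2.77).

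**Figure D5:**
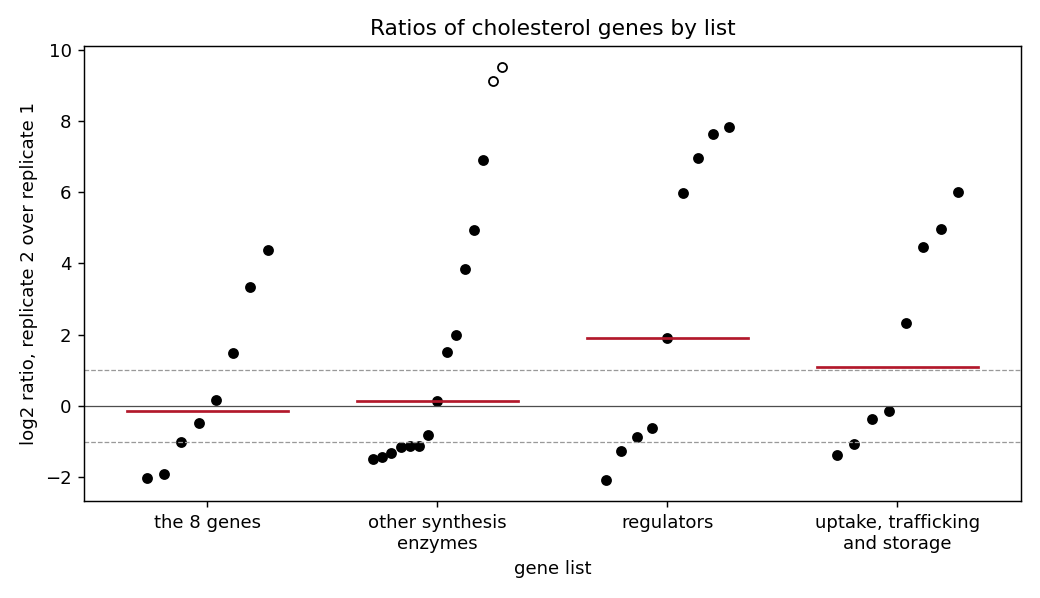
Log2 ratio of replicate 2 over replicate 1 for the 8 genes and the 3 further lists, each gene a point and each list's median a red line; dashed lines mark 2-fold. Open points are Mvd and Mvk, which had 0 counts in replicate 1, so their fitted ratio depends on the prior. Each list has points on both sides of 0.

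Over 2 libraries many genes have like levels, so likeness of pattern says little. By distance on log2(TPM + 1) in the 2 libraries, the genes nearest to Idi1, the gene of highest mean level, were mt-Nd4l, at 54.1 TPM in replicate 2, against 237 TPM in replicate 1, and Tm9sf3, at 52.9 and 239 TPM. They had distances of 0.0031 and 0.031 and GC contents of 41.1% and 39.96%, and 37 genes lay within 0.25 of Idi1. The nearest to Fdps, the gene whose ratio was farthest from 1, were Ppp1r11, at 104.0 and 5.04 TPM, and Lsm7, at 104.9 and 5.56 TPM. Their distances were 0.066 and 0.12 and their GC contents 55.0% and 53.0%, and 12 genes lay within 0.25 of Fdps.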

How the data were processed

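Polyadenylated RNA of mouse lung was sequenced in 2 libraries. The authors deposited a gene table and a transcript table for each, on assembly mm10 and annotation M4 per the deposited file descriptions. Neither aligner nor quantifier is named in the sources used here. Per the file headers, the deposited expected counts are estimated reads for each gene or transcript, TPM values are abundances per 1000000 transcripts, and percent values are each transcript's share of its gene. The deposited interval bounds of TPM are the authors', and their level is not given in the headers. They surround the posterior mean TPM, which for most genes here is a little below the TPM.

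Symbols, positions and transcripts came from GENCODE M21 (GRCm38, to which mm10 corresponds), and 42462 of 43346 gene rows matched by identifier. Promoters came from RefSeq on GRCm38.p6. Both sources are later than the deposited annotation, and the reference transcript differs in length from the deposited one for Hmgcs1, Fdps and Srebf2. Spike-in rows and rows without a mouse gene identifier were left out.

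Expected counts were rounded, scaled by TMM (edgeR 4.0.16, R 4.3.3; factors 1.11 and 0.901 for replicates 2 and 1) on 14139 genes whose mean TPM was 1 or more, and given as log2 of replicate 2 over replicate 1 with a prior of 0.5 counts. With 1 library on each side no test and no p-value is possible. Intervals of ratios are exact Clopper-Pearson intervals at 95% and cover counting error only: without molecular identifiers, reads may be copies of 1 molecule. The calculation recovered known ratios in simulated counts that had counting error only, few changed genes and no GC trend. These libraries differ from that setting, so the recovery checks the arithmetic and not the scaling used here. GC content is that of the transcript with the highest mean TPM, and its trend is a lowess fit with a span of 0.3. Similar transcripts were sought with BLAST, at 85% identity or more over at least 200 bases. Alternatives used DESeq2 1.42.0 size factors, total counts, TPM ratios, a prior of 5 counts, posterior mean counts, no filter and a subtracted GC trend. Other work used scipy 1.17.1 for intervals and statsmodels 0.14.6 for the trend, in Python 3.11.15.

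All 8 genes are named. From each of 3 further lists the 3 genes of highest mean TPM and those of highest and lowest ratio are named. The genes and lists were chosen with earlier results of these data known.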

Additional observations from a re-analysis of the deposited data

How the results depend on the processing

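Fdps, Srebf2 and Fdft1 stayed over 2-fold higher in replicate 2 by total counts, by DESeq2 size factors, by TPM, with a prior of 5 counts, with posterior mean counts and without the filter. With the GC trend subtracted, Srebf2 was at -1.01, since its log2 ratio of 3.33 lay below the trend of 4.35 at its GC content. Of the 8 genes, 1, Srebf2 itself, was over 2-fold below the trend and 2 were over 2-fold above it. Among all genes these shares were 16.3% and 18.4%. Insig1 was no longer over 2-fold lower in replicate 2 by total counts, at -0.72, and without the filter. The median of the 8 log2 ratios was 0.15 by total counts, 0.090 by TPM ratio and -0.48 with the trend subtracted. The median of all genes was 0.45 by total counts and 0.01 by TPM ratio. Of the 32 listed genes, 5 were over 2-fold lower by total counts, against 22.4% of all genes, and 16 over 2-fold higher, against 42.4%. With the trend subtracted, 1 was over 2-fold below it and 12 were over 2-fold above it, against the same 16.3% and 18.4%, which are not matched in GC content. The sum of the 8 genes averaged 1011 over the libraries when taken as CPM. The sum of TPM was 341 without replicate 1 and 623 without replicate 2. Adding the counts of similar pseudogenes, a choice made after seeing the data, put Idi1 at -2.04 and Fdps at 4.38. No paired analysis was possible because the libraries form 1 group.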
